A study of Mus musculus with 6 samples.

Results

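The genes described here are 7 genes of tendon cells: the transcription factor genes Scx (scleraxis) and Mkx (Mohawk), the membrane protein gene Tnmd (tenomodulin), and the genes of the secreted proteins Cilp, Cilp2, Cpxm2 and Myoc (myocilin). Their rows were picked by gene symbol and were found as 7 of 24062 genes in the normalised count table and as 7 of 4939 genes in the counts-per-million (CPM) table. RNA from cells of the hind-limb muscle of adult C57BL/6 mice was sequenced after the cells had been sorted, fresh from the tissue, by the red fluorescent protein tdTomato. In every mouse tdTomato was switched on by tamoxifen, given on alternate days for 3 treatments, with harvest 10 days later. Tw2pos (2 libraries) and Tw2neg (2 libraries) are the tdTomato-positive and tdTomato-negative cells of Tw2-CreERT2/+;R26-tdTO+ mice, in which the Cre is driven from the Twist2 gene. Pax7pos (1 library) and Pax7neg (1 library) are the tdTomato-positive and tdTomato-negative cells of Pax7-CreERT2/+;R26-tdTO+ mice, in which the Cre is driven from Pax7, the gene of satellite cells. Controls thus carried a Cre allele and had tamoxifen as well, and a negative fraction holds every sorted cell that was not labelled. The labels do not say whether the 2 libraries of a group came from separate mice, and what the p-values measure is therefore the spread between these libraries, which may be technical.

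Tendon cells, or tenocytes, lie between parallel collagen fibres and make the tissue that ties muscle to bone. Scleraxis, a basic helix-loop-helix factor, marks tendon progenitors in the embryo and stays on in tendon cells, and Mohawk, a homeodomain factor, is needed for tendons of normal thickness in mice. Tenomodulin is a cell-surface protein of differentiating tendon cells whose gene depends on scleraxis in mouse tendons, whereas Cilp, Cilp2, Cpxm2 and Myoc encode secreted proteins that are not confined to tendon.

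Positions are those of GENCODE release M21 on GRCm38. Scx is on chromosome 15 at 76457452 to 76459458 on the plus strand, inside 1 intron of Bop1, which is on the other strand and shares 0 exonic bases with it. Tnmd is on chromosome X at 133850980 to 133865577, Cilp on chromosome 9 at 65265180 to 65280605 and Myoc on chromosome 1 at 162639155 to 162649693, all on the plus strand. Cilp2 is on chromosome 8 at 69880369 to 69887687 and Cpxm2 on chromosome 7 at 132032687 to 132154739, both on the minus strand, and Cpxm2 lies within an intron of an Fgfr2 gene model of the same strand without shared exonic bases. The library strand was not given in the sources used here, so reads of unspliced Bop1 RNA could be counted to Scx. Bop1 itself had 32.6 and 28.6 CPM in Tw2pos and 35.4 and 42.7 CPM in Tw2neg, and its log2 difference was -0.36 ± 0.20 (SE; adjusted p = 0.202, limma) where that of Scx was 4.05. The part of such reads in the Scx counts was not tested. Myoc overlaps the antisense gene Myocos, and Mkx and Cpxm2 overlap further gene models that have no row of their own in the tables used.

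Because these genes moved together, the stretches just upstream of 4 of them are shown for the letters of the E-box, CANNTG, the core that basic helix-loop-helix factors such as scleraxis and Twist2 recognise. The sequences come from the RefSeq promoter table (GRCm38.p6), which matched 5 of the 7 genes, Tnmd, Cilp, Cilp2, Cpxm2 and Myoc. They run 5′ to 3′ on the gene's strand up to the base before the first annotated transcript base, and capitals mark each CANNTG, which reads the same on both strands.
Tnmd, chrX:133850758-133850979, plus strand: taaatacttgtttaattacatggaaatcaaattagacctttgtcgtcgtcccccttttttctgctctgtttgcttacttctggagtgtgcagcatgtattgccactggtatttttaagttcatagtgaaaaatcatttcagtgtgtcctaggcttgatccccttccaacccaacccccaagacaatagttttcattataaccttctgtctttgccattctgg
Cilp, chr9:65264930-65265179, plus strand: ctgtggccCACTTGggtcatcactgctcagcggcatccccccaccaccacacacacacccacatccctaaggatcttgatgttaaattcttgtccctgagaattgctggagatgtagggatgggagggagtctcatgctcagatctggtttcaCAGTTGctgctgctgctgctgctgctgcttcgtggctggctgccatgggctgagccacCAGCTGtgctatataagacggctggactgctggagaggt
Cpxm2, chr7:132154742-132154991, minus strand: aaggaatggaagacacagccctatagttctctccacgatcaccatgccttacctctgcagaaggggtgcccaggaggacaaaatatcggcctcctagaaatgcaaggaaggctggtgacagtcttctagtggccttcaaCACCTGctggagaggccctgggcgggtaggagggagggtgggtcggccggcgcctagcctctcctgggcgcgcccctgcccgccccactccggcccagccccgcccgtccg
Myoc, chr1:162638900-162639149, plus strand: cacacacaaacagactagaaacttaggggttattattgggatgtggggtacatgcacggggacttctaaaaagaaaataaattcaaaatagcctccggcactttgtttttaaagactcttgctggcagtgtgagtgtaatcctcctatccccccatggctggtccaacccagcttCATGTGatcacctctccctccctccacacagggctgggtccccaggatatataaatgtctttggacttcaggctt
The Cilp window held 3 matches, the Cpxm2 window 1, the Myoc window 1 and the Tnmd window, which is shorter at 222 bases, 0. Of 32851 RefSeq promoters cut to the 250 bases before the start, 66.2% held at least 1 such match, so a match is common. The special case CAGATG, searched on both strands, occurred in 0 of the 4 windows and in 14.4% of all promoters. Matches are letters in a window and say nothing of binding.

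The label and depth were checked first. Twist2 had 8.03 and 17.9 CPM in Tw2pos and 1.76 and 1.85 CPM in Tw2neg, and Pax7 had 303 CPM in Pax7pos and 0.402 CPM, 5 reads, in Pax7neg. The Twist2 libraries held between 10902318 and 13205751 reads, and the 4939 genes of the CPM table took 6016469 reads in Pax7pos and 7565797 in Pax7neg. All 7 genes had reads in all 6 libraries, the fewest being 27 reads of Scx in Tw2neg replicate 2 and 43 reads each of Scx and Mkx in Pax7pos. Intervals for the Pax7 libraries are exact 95% Poisson intervals and cover counting error only. These are bulk samples, so fewer cells of a type and less RNA per cell cannot be told apart. Fold changes below are limma's differences on log2(value + 1), from normalised counts between the Twist2 groups and from CPM in comparisons with the Pax7 line. The added 1 shrinks the change of low genes, but limma's values were not always the smaller ones. For Scx in Tw2pos over Tw2neg limma gave 4.05, where edgeR and DESeq2 each gave 3.84. The p-values are adjusted over all genes tested.

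Each of the 7 genes had its highest level in the 2 Tw2pos libraries. Pax7pos was the lowest library for 6 of the 7, the exception being Scx. Scx and Mkx were low in every other fraction, whereas the 5 other genes kept from 34.0 to 949 CPM in the unlabelled fractions and came down to 4.70 to 17.0 CPM in Pax7pos.

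**Figure D1:**
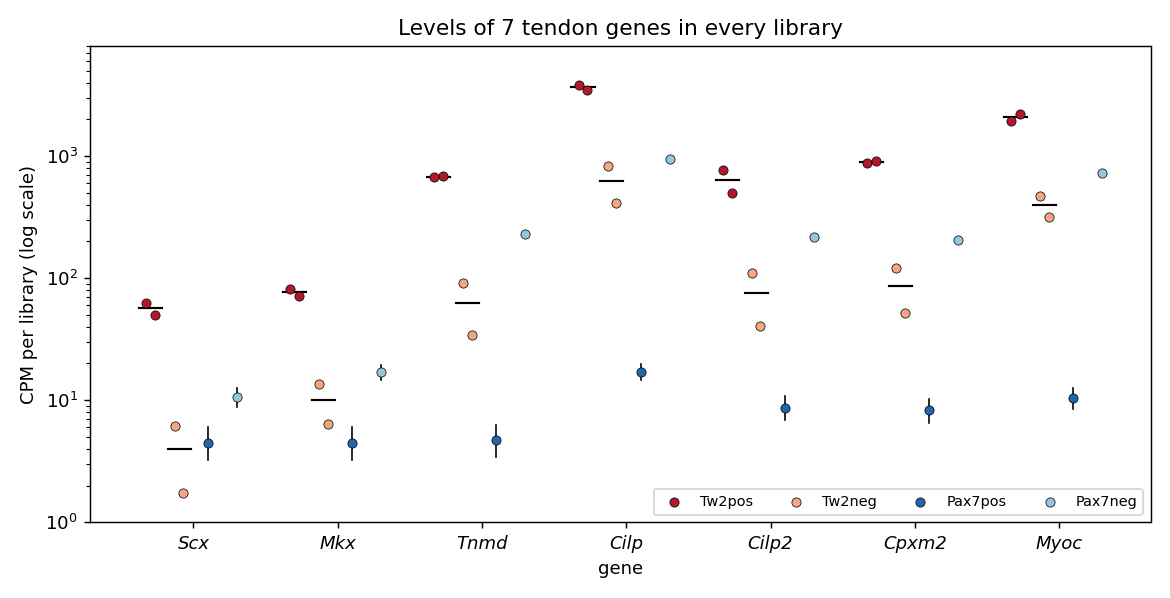
CPM (log axis) of the 7 genes in each of the 6 libraries, grouped as Tw2pos, Tw2neg, Pax7pos and Pax7neg; bars are means of 2 libraries and vertical lines on the Pax7 points are exact 95% Poisson intervals. Both Tw2pos libraries lie above every other library for each gene, and the 5 genes other than Scx and Mkx reach 4.70 to 17.0 CPM in Pax7pos.

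Scx, the gene of scleraxis, had 63.1 and 50.2 CPM in Tw2pos, 6.20 and 1.73 CPM in Tw2neg, 4.49 CPM (3.25 to 6.05) in Pax7pos and 10.6 CPM (8.87 to 12.6) in Pax7neg. Both Tw2pos libraries stood above all others, and the Pax7pos value fell between the 2 Tw2neg libraries. Scx had the largest rise of the 7 in Tw2pos over Tw2neg, with means of 56.7 ± 9.15 and 3.96 ± 3.17 CPM (SD, n = 2 each) and a log2 rise of 4.05 ± 0.57 (SE; adjusted p = 0.00412, limma). Against Pax7pos the Tw2pos cells were higher by 3.38 ± 0.59 (adjusted p = 0.00245, limma), the smallest of the 7 differences in that comparison. Scx met the floor of 10 CPM in 3 libraries only through Tw2pos and Pax7neg, so its row was kept through the higher group.

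Mkx, the gene of Mohawk, lies on chromosome 18 at 6934518 to 7004780 on the minus strand. It had 82.2 and 71.7 CPM in Tw2pos, 13.5 and 6.39 CPM in Tw2neg, 4.49 CPM (3.25 to 6.05) in Pax7pos and 17.0 CPM (14.7 to 19.4) in Pax7neg. The Tw2pos libraries again stood above the rest, and Pax7pos was the lowest library. The log2 fold change of Tw2pos over Tw2neg was 3.02 ± 0.36 (adjusted p = 0.00268, limma) and that of Tw2pos over Pax7pos was 3.82 ± 0.46 (adjusted p = 0.00052, limma).

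Tnmd, the gene of the tendon cell surface protein tenomodulin, had 672 and 690 CPM in Tw2pos, 90.6 and 34.0 CPM in Tw2neg, 4.70 CPM (3.43 to 6.29) in Pax7pos and 228 CPM in Pax7neg. The 2 Tw2pos libraries lay close together, the Tw2neg libraries lay far apart and below Pax7neg, and Pax7pos was the lowest. The rise in Tw2pos was 3.60 ± 0.44 on the log2 scale over Tw2neg (adjusted p = 0.00285, limma) and 6.90 ± 0.52 over Pax7pos (adjusted p = 6.37e-05, limma).

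Cilp, which encodes a matrix protein that binds transforming growth factor beta, had the most reads of the 7, with 3854 and 3453 CPM in Tw2pos, 836 and 409 CPM in Tw2neg, 17.0 CPM (14.5 to 19.9) in Pax7pos and 949 CPM in Pax7neg. Its relative Cilp2 had 772 and 502 CPM in Tw2pos, 111 and 40.8 CPM in Tw2neg, 8.67 CPM (6.91 to 10.7) in Pax7pos and 217 CPM in Pax7neg. For both genes the Tw2pos libraries did not overlap with any other library and Pax7pos was the lowest. In Tw2pos over Tw2neg, Cilp rose by 2.63 ± 0.43 (adjusted p = 0.00679, limma) and Cilp2 by 3.20 ± 0.48 (adjusted p = 0.00513, limma) on the log2 scale. Over Pax7pos the rises were 7.66 ± 0.48 for Cilp (adjusted p = 3.43e-05, limma), the largest of the 7, and 6.01 ± 0.57 for Cilp2 (adjusted p = 0.000166, limma).

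Cpxm2, a secreted member of the carboxypeptidase family, had 886 and 920 CPM in Tw2pos, 122 and 51.5 CPM in Tw2neg, 8.25 CPM (6.53 to 10.3) in Pax7pos and 207 CPM in Pax7neg. Myoc, a secreted olfactomedin-domain protein best known from the eye's drainage tissue and from glaucoma, had 1953 and 2208 CPM in Tw2pos, 472 and 318 CPM in Tw2neg, 10.4 CPM (8.50 to 12.7) in Pax7pos and 729 CPM in Pax7neg. Both showed the order seen for Tnmd and the Cilp genes, with Tw2pos above Pax7neg, Pax7neg above Tw2neg, and Pax7pos far below. In Tw2pos over Tw2neg the log2 fold change was 3.50 ± 0.40 for Cpxm2 (adjusted p = 0.00236, limma) and 2.41 ± 0.31 for Myoc (adjusted p = 0.00329, limma). Over Pax7pos it was 6.61 ± 0.48 for Cpxm2 (adjusted p = 5.54e-05, limma) and 7.50 ± 0.38 for Myoc (adjusted p = 2.65e-05, limma). Myoc thus had the smallest of the 7 rises over Tw2neg and the second largest over Pax7pos.

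Between Tw2pos and Tw2neg, 7 of 7 genes rose and passed the test, where 38.6% of 14155 genes tested passed, 18.7% as higher and 20% as lower in Tw2pos. The median log2 fold change was 3.20 over the 7 genes and -0.04 over all genes tested. The libraries of the groups did not overlap for any of the 7, a separation that 37.1% of all genes showed with Tw2pos higher. Without Tw2pos replicate 1 the rises were 2.50 to 3.89, and without replicate 2 they were 2.32 to 4.22. These fits take the spread from the Tw2neg libraries alone, so their calls are not counted for the 7 genes. The size of the rises moved with the Tw2neg libraries: without Tw2neg replicate 1 they were 2.69 to 4.95, and without Tw2neg replicate 2 they were 2.12 to 3.16. Tw2neg replicate 1 had more of all 7 genes than replicate 2, by 1.48 to 3.59 times in CPM, while the median log2 difference between these libraries over all genes was -0.01. In Tw2pos, 4 of the 7 were higher in replicate 1, by ratios that ranged over the 7 genes from 0.884 to 1.54.

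Between Tw2pos and Pax7pos, 7 of 7 genes were again higher and passed, where 58.8% of 4939 genes passed, 33.7% as higher and 25.1% as lower in Tw2pos. For Scx and Mkx this test was not free, because neither met the floor of 10 CPM in 3 libraries without Tw2pos. The median was 6.61 over the 7 genes and 0.41 over all genes tested. As plain ratios of CPM, Tw2pos exceeded Pax7pos by 12.6 times for Scx and 17.1 times for Mkx, and by 73.5 (Cilp2), 109 (Cpxm2), 145 (Tnmd), 199 (Myoc) and 215 times (Cilp) for the others. Pax7pos is a single library that the test takes to vary as the Twist2 libraries do, and the authors had kept in the CPM table only genes that differed at least 2-fold from Tw2neg in some comparison. Without Tw2pos replicate 1 the log2 fold changes of the 7 genes were 3.22 to 7.59, and without replicate 2 they were 3.55 to 7.74. Each of these fits sets 1 library against 1, with the spread taken from the Tw2neg libraries alone, so no calls are given.

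**Figure D2:**
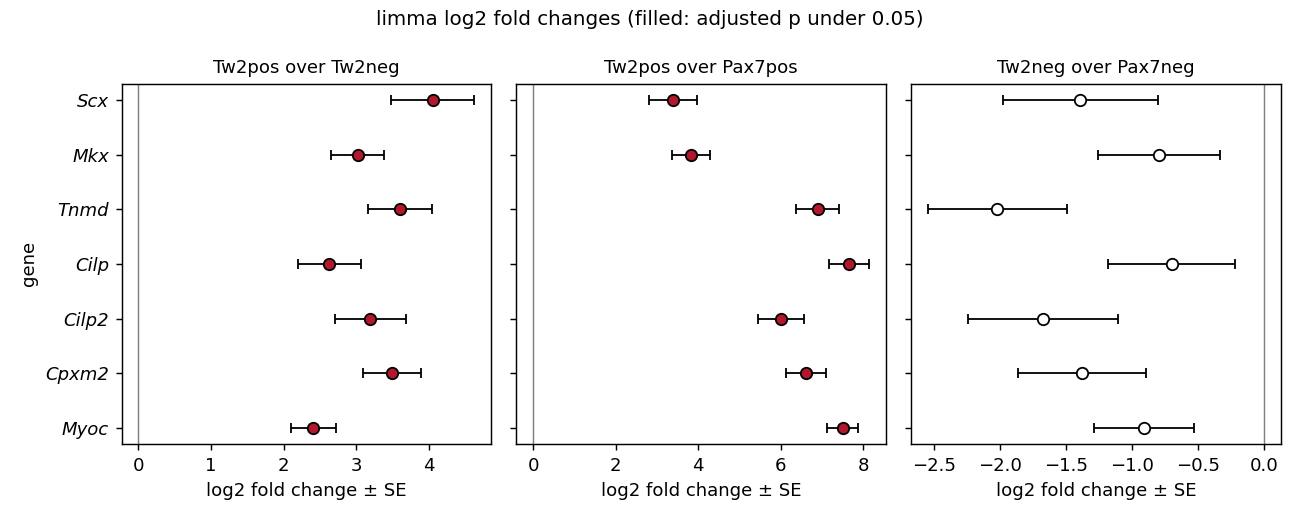
limma log2 fold changes of the 7 genes with standard errors in Tw2pos over Tw2neg, Tw2pos over Pax7pos and Tw2neg over Pax7neg; filled points passed at an adjusted p under 0.05. The rises over Tw2neg run from 2.41 to 4.05, those over Pax7pos from 3.38 to 7.66, and the points of Tw2neg over Pax7neg are all below 0 and open.

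The unlabelled fractions of the 2 lines were compared to see whether the lines differed without the label. The log2 fold changes of Tw2neg over Pax7neg were negative for all 7 genes, between -2.02 (Tnmd) and -0.70 (Cilp), and 0 of 7 passed in limma, which passed 3 genes, 0.0607% of 4939. For Scx the sign was not free. Scx met the floor of 10 CPM in 3 libraries only through Tw2pos and Pax7neg (10.6 CPM). At an unadjusted p under 0.05 there were 5 of the 7, the exceptions being Mkx and Cilp, and 769 of all genes. edgeR passed 2 of the 7 as lower (Tnmd and Cilp2), among 97 genes lower and 183 in all, and DESeq2 passed 1 (Tnmd), among 109 lower and 253 in all. The size turned on the Tw2neg libraries. Without Tw2neg replicate 1, which had more of all 7 genes, the log2 fold changes were -2.71 to -1.19. Without Tw2neg replicate 2 they were -1.32 to -0.18. Each of these fits sets 1 library against 1, with the spread taken from the Tw2pos libraries alone, so no calls are given. Leaving out a Tw2pos library does not change the fold changes of Tw2neg over Pax7neg. Unlabelled cells of the Pax7 line include any cell that the Twist2 label would mark, and the line and that difference in content cannot be told apart.

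Within the Pax7 line the labelled and unlabelled fractions have 1 library each and no test. In Pax7pos, 5 of 7 genes were lower than in Pax7neg by at least 2 on the scale of log2(CPM + 10), a size that 18.4% of 4939 genes reached, 14.6% in that direction. These were Tnmd (-4.02), Cilp (-5.15), Cilp2 (-3.60), Cpxm2 (-3.57) and Myoc (-5.18). The ratio of Pax7neg to Pax7pos CPM was 69.8 for Myoc (57.3 to 85.9) and 25.0 for Cilp2 (20.1 to 31.5). For Scx and Mkx the differences were -0.51 and -0.90, and the same ratio was 2.36 for Scx (1.66 to 3.41) and 3.77 for Mkx (2.71 to 5.37). The intervals of both factor genes lay apart from those of the other 5 genes.

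The labelled-minus-unlabelled difference thus had opposite signs in the 2 lines for all 7 genes. In the Pax7 line those of Scx (-0.51) and Mkx (-0.90) were short of the size of 2 on log2(CPM + 10). For Scx the direction in the Pax7 line was not free, because Scx met the floor of 10 CPM in 3 libraries only with Pax7neg among them. In limma's test of that difference between the lines, 7 of 7 passed as more positive in the Twist2 line, where 35.7% of 4939 genes passed and 23.2% in that direction (12.5% in the other). The differences were 8.92 ± 0.74 for Tnmd (adjusted p = 0.000179, limma) and 8.36 to 8.41 for Cilp and Myoc at the upper end. They were 4.77 ± 0.83 for Scx (adjusted p = 0.00433, limma) and 4.62 ± 0.66 for Mkx (adjusted p = 0.00179, limma) at the lower end. With 1 Twist2 library left out at a time, the differences stayed positive for all 7 genes, between 4.07 and 9.61. The Pax7 libraries, 1 for each fraction, were never left out, so the dependence on them was not tested.

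The make-up of the 7 genes' reads showed where Pax7pos departed from the other libraries. Summed over the 7 genes there were 8282 and 7895 CPM in Tw2pos, 1651 and 862 CPM in Tw2neg, 58.1 CPM (556 reads) in Pax7pos and 2358 CPM in Pax7neg. The share of Scx and Mkx together was 1.75% and 1.54% in Tw2pos, 1.19% and 0.942% in Tw2neg, 15.5% (12.6% to 18.7%, exact Clopper-Pearson) in Pax7pos and 1.17% (1.05% to 1.30%) in Pax7neg. Cilp held 46.5% and 43.7% of the reads in Tw2pos, 50.6% and 47.5% in Tw2neg, 29.3% in Pax7pos and 40.3% in Pax7neg. Tnmd held 8.11% and 8.74% in Tw2pos, 5.49% and 3.95% in Tw2neg, 8.09% in Pax7pos and 9.68% in Pax7neg. The make-up in Pax7neg, including its share of factor reads, was close to that of the Twist2 fractions, although its summed level was between theirs. The Pax7pos interval did not reach the share of Scx and Mkx in any other library.

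**Figure D3:**
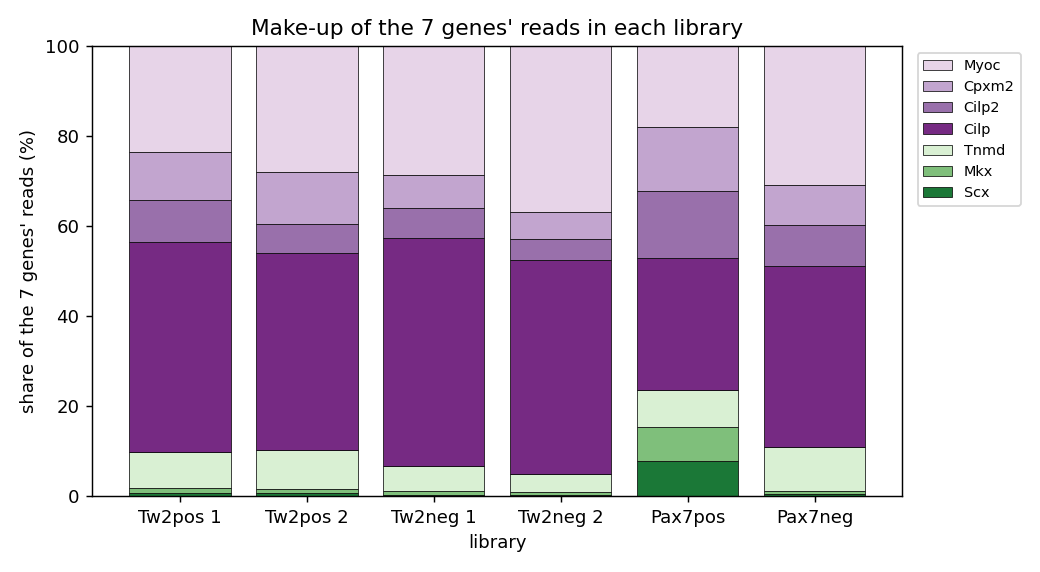
Share in percent of each of the 7 genes among their summed reads, 1 stacked bar for each library in the order Tw2pos, Tw2neg, Pax7pos, Pax7neg. Scx and Mkx together take 15.5% in Pax7pos and 0.942% to 1.75% in the other 5 libraries.

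Per kilobase of exon (union of the GENCODE exons), the level in Tw2pos was highest for Myoc at 1003 ± 87.0 CPM per kb and Cilp at 859 ± 66.8 (SD, n = 2 each), followed by Tnmd at 503 ± 9.54. Cpxm2 had 195 ± 5.26 and Cilp2 148 ± 44.3 CPM per kb, and the factor genes were last, with 28.2 ± 4.56 for Scx and 18.8 ± 1.81 for Mkx. Some neighbours in this order had libraries close to each other: the Cpxm2 libraries had 192 and 199 CPM per kb and the Cilp2 libraries 179 and 116, while the lower Myoc library (942, the other 1065) was close to the higher Cilp library (906, the other 812). Tnmd, Scx and Mkx each stood clear of their neighbours in both libraries. This order in Tw2pos was the same with the longest transcript, and with the longest protein-coding transcript, a choice made after the values were seen, which raised Scx to 54.7 CPM per kb. In Tw2neg the first 5 places were the same and Mkx, at 2.43, came before Scx, at 1.98, an order that turned with the longest protein-coding transcript (3.83 for Scx and 2.73 for Mkx). In Pax7pos all 7 fell between 1.10 (Mkx) and 5.04 CPM per kb (Myoc), and Scx, at 2.24, stood above Cilp2, at 2.01, and Cpxm2, at 1.79. The place of Scx there depended on the length used: with the longest transcript Cpxm2, at 2.36, stood above Scx, and with the longest protein-coding transcript Scx, at 4.34, was the second of the 7.

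The other genes of the pathway were described by lists. Among 24 regulators and inducers of tendon cells, 22 were tested between Tw2pos and Tw2neg, and 18 rose, 1 fell and 3 did not pass, with a median log2 fold change of 1.49 against -0.04 for all genes. Of all genes tested, 18.7% rose and 20% fell. Etv4, an ETS factor of fibroblast growth factor signalling, rose most, by 3.80 (adjusted p = 0.0016, limma). It had 854 and 943 normalised counts in Tw2pos and 93.5 and 43.2 in Tw2neg, which did not overlap. The receptor genes Tgfbr1 (0.96) and Tgfbr2 (0.90) rose, the ligand gene Tgfb1 fell by 0.96 (adjusted p = 0.0245, limma), and the immediate-early factor gene Egr1 had 1.18 (adjusted p = 0.115, limma), which did not pass. Without Tw2pos replicate 1 or 2 the rises were 9 of 22 each, and on library totals 11 of 22. Against Pax7pos the list did not move one way: of 15 tested, 3 were higher (Eya2, 4.25; Etv4, 2.87; Tgfb3, 1.79), 4 were lower and 8 did not pass, with a median of -0.45 against 0.41 for all genes. Of all genes tested there, 33.7% were higher and 25.1% lower. Sox9, a factor of cartilage and of tendon attachment cells, was among the lower ones at -3.77 (adjusted p = 0.00016, limma).

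Tendon matrix genes rose with the 7 genes in both comparisons. Of 28 matrix genes, 25 rose in Tw2pos over Tw2neg, 0 fell and 3 did not pass (Col1a2, Col3a1 and Col11a1), with a median of 2.41. Col22a1, whose collagen is found where muscle meets tendon, rose most, by 4.71 (adjusted p = 0.0016, limma), and the main fibril collagen gene Col1a1 rose by 2.82 (adjusted p = 0.0416, limma). Against Pax7pos 28 of 28 were higher, with a median of 6.26 against 0.41 for all genes, including Col22a1 at 8.38 and Col14a1 at 7.68. Without a Tw2pos library 18 or 19 of 28 rose over Tw2neg, and after quantile normalization 19. Of 8 genes reported as targets of scleraxis or Mohawk in mouse, 7 rose over Tw2neg, where 18.7% of all genes rose. The other, Col1a2, did not pass (2.75, adjusted p = 0.0628, limma). Against Pax7pos 7 were higher, where 33.7% of all genes were, and Bmp4 had -0.45 (adjusted p = 0.358, limma). This list is not separate from those above: it holds Tnmd, the matrix genes Col1a1, Col1a2 and Col14a1, and Bmp4 of the regulator list. Leaving out 1 library left 3 to 5 of the 8 passing over Tw2neg, and quantile normalization left 4.

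**Figure D4:**
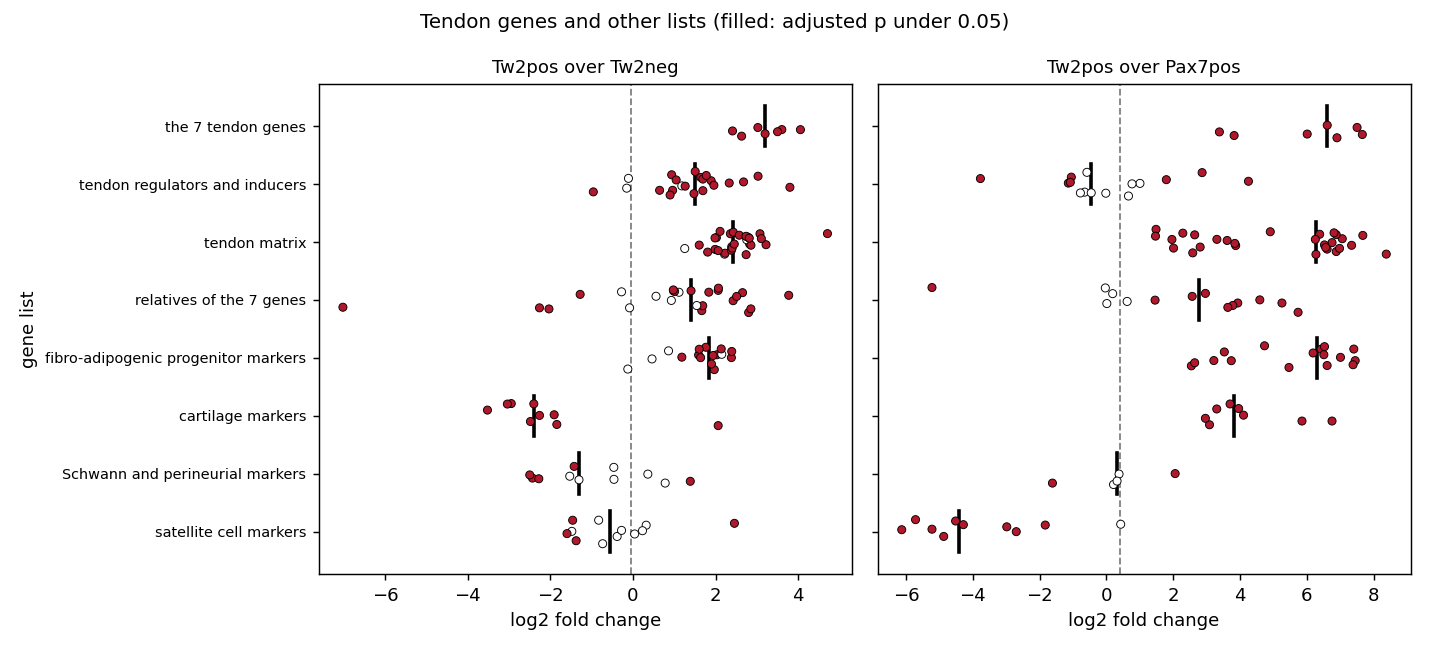
limma log2 fold changes of single genes (points; filled where the adjusted p was under 0.05) by list, for Tw2pos over Tw2neg and Tw2pos over Pax7pos; bars are list medians and dashed lines the median of all genes tested. The matrix list has medians of 2.41 and 6.26, and the regulator list 1.49 and -0.45.

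Sequence relatives of the 7 genes divided. Of 25 relatives tested between Tw2pos and Tw2neg, 14 rose, 4 fell and 7 did not pass, with a median of 1.41. Of all genes tested, 18.7% rose and 20% fell. Lect1, which encodes chondromodulin, the cartilage relative of tenomodulin, fell by 2.26 (adjusted p = 0.0035, limma), where Tnmd rose. The carboxypeptidase relatives Cpxm1 (2.06), Aebp1 (2.42) and Cpz (2.80) rose, as did the myocilin relative Olfml3 (2.85), whereas Olfm4, an olfactomedin gene of neutrophil granules, fell by 7.02 (adjusted p = 0.0014, limma). Olfm4 had 0 and 2.41 normalised counts in Tw2pos and 286 and 199 in Tw2neg. The Iroquois gene Irx1, a homeodomain relative of Mkx, rose by 3.77 (adjusted p = 0.0117, limma) with unequal libraries of 34.4 and 153 normalised counts in Tw2pos and 4.07 and 4.80 in Tw2neg. Against Pax7pos 9 of 14 were higher, 1 was lower and 4 did not pass, where 33.7% of all genes were higher and 25.1% lower. The lower one, Msc, a basic helix-loop-helix relative of Scx found in muscle precursors, had -5.22.

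Among markers of other cells, those of fibro-adipogenic progenitors moved in the direction of the 7 genes in both comparisons. In Tw2pos over Tw2neg, 18.7% of all genes tested rose and 20% fell. Of 16 markers of fibro-adipogenic progenitors, the connective tissue cells between muscle fibres, 12 rose in Tw2pos over Tw2neg (8 without Tw2pos replicate 2) and 16 of 16 were higher than in Pax7pos. Their summed level was 67512 and 83355 CPM in Tw2pos, 19711 and 14992 in Tw2neg, 2729 in Pax7pos and 38581 in Pax7neg, the order in which the Cilp, Myoc and Tnmd levels also fell. Neutrophil markers summed to 44.5 and 30.7 CPM in Tw2pos and 6089 and 5548 in Tw2neg, and 0 of 10 rose while 10 of 10 fell. Macrophage (11 of 11), lymphocyte (12 of 12) and endothelial markers (10 of 11, or 5 without Tw2pos replicate 2) also fell in Tw2pos over Tw2neg. Of pericyte and smooth muscle markers 1 of 10 rose, and of myofibre markers 6 of 9 rose, or 0 without Tw2pos replicate 2. Against Pax7pos, 8 of 11 endothelial, 6 of 9 macrophage and 6 of 8 pericyte and smooth muscle markers were higher in Tw2pos, as the 7 genes were, and without Tw2pos replicate 1 or 2 the macrophage count was 4 or 3. Of all genes tested in that comparison, 33.7% were higher and 25.1% lower in Tw2pos. There 1 macrophage marker, 1 pericyte marker and 9 of 10 satellite cell markers were lower, and 0 of 12 lymphocyte and 0 of 9 neutrophil markers passed in limma. Satellite cell markers summed to 1260 and 1385 CPM in Tw2pos, 1290 and 770 in Tw2neg, 7994 in Pax7pos and 699 in Pax7neg. Over Tw2neg, 1 of 12 satellite cell markers rose and 3 fell, and 1 of 11 Schwann and perineurial markers rose and 4 fell. No defining marker of these lists was at 0 in all libraries of a Twist2 group, and the part of these cells in the levels of the 7 genes was not tested.

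Cartilage genes parted from the 7 genes between the Twist2 fractions. Of 9 tested, 8 fell in Tw2pos over Tw2neg, where 20% of all genes fell, and 1, Comp, which tendon also makes, rose by 2.06. Col9a1, a collagen of cartilage, had 164 and 183 normalised counts in Tw2pos and 2719 and 1479 in Tw2neg and fell by 3.52 (adjusted p = 0.0010, limma). Against Pax7pos 8 of 8 were higher, where 33.7% of all genes were. Cilp, named after cartilage, rose between the same fractions in which Col9a1, Acan (-2.95) and Col2a1 (-3.04) fell.

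The genes closest in pattern to each of the 7 were found among 4789 genes without regard to function. The measure was the root mean square difference over the 6 libraries of log2(CPM + 10), after each gene's own mean over the libraries had been subtracted. The 10 added to each CPM flattens the profile of a low gene, such as Scx or Mkx outside Tw2pos. Level therefore still enters these distances. For Scx these were Lpar1, a lysophosphatidic acid receptor gene, at 0.110 and Etv4 at 0.149, and for Mkx Gnai1, a G protein subunit gene, at 0.0743 and Gpc6, a glypican gene, at 0.0985. Kera, the gene of the proteoglycan keratocan, was among the closest to Tnmd (0.234), Cilp2 (0.231) and Cpxm2 (0.157). The pattern of Cilp was closest to that of Fmod, the gene of fibromodulin (0.216), and that of Myoc to Dcn, the gene of decorin (0.163). Among the 7 themselves, by the same measure, Scx and Mkx lay 0.175 apart, the other 5 lay 0.204 to 0.834 from each other, and either factor gene lay 0.954 to 1.76 from those 5. The points share their libraries and normalisation, and these distances are descriptions.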

How the data were processed

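RNA was sequenced from the 6 sorted samples described above. The submitters' processing notes name TopHat2 2.0.0, DESeq2 1.6.3 and GRCm38/mm10; counter, annotation and strand were not given in the sources used here. Deposited by the authors were a normalised signal per gene (24062 genes, 4 Twist2 libraries) and CPM with log2 fold changes (4939 genes, both lines, Twist2 groups as means). Every value of the first table was a whole multiple of 1 read within a tolerance of 0.01 (100%), so reads, and CPM per Twist2 library, were recovered. In the deposited CPM table each gene reached 10 CPM in 3 libraries or more, with a log2 fold change of at least 1 in size from Tw2neg in some comparison.

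Tw2pos and Tw2neg were compared with limma 3.58.1 (R 4.3.3, mean-variance trend, Benjamini-Hochberg adjustment, threshold 0.05) on log2(normalised count + 1) for genes whose mean was 10 or more. A fit of 6 libraries had been planned, and that table holds 4. The comparisons with the Pax7 line were fitted on log2(CPM + 1) over 6 libraries with 2 residual degrees of freedom. edgeR 4.0.16 and DESeq2 1.42.0 on recovered reads were alternatives. Both fits were run on simulated data with the same spread in all groups, whereas the real Tw2neg libraries lay further apart than those of Tw2pos. The pass mark set there did not cover the difference between the lines. The 7 genes and the lists were chosen with earlier results of these data known. From each list the text names, by rule, the 3 genes of highest mean and the largest passing change in each direction; genes named beyond that were chosen after their values were seen. Tables and plots used Python 3.11.15.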

Additional observations from a re-analysis of the deposited data

Results flagged for a closer look

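The labelled-minus-unlabelled difference of each of the 7 genes differed between the lines by limma's interaction contrast on log2(CPM + 1). The Twist2 line minus the Pax7 line gave 4.77 for Scx, 4.62 for Mkx, 8.92 for Tnmd, 8.36 for Cilp, 7.68 for Cilp2, 7.99 for Cpxm2 and 8.41 for Myoc. Every labelled Twist2 library was above every unlabelled one, and the labelled Pax7 library was below its unlabelled partner, for all 7 genes. For Scx and Mkx the Pax7 difference was short of the size of 2 on log2(CPM + 10). The Pax7 line has 1 library per fraction, and Scx met the floor of 10 CPM in 3 libraries only with Pax7neg among them.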

How the results depend on the processing

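None of the 316 recomputed values of single genes reversed. Of these, 300 kept their side of the threshold and 16, all in Tw2neg over Pax7neg, passed only under an alternative. Part of the 16 came from fits of 1 library against 1, which give no valid call. Leaving out a library of a group outside the comparison cannot change a fold change, so those values could not reverse. The other recomputed values were counts, of which 66 stayed near the main count and 30 moved from it. Under every alternative that kept all libraries, all 7 genes passed in Tw2pos over Tw2neg, Tw2pos over Pax7pos and the difference between the lines. The exception was a mean of at least 50 CPM, where Scx and Mkx were not tested. Over the alternatives the log2 fold change of Tw2pos over Tw2neg was 3.16 to 4.95 for Scx and 1.73 to 2.69 for Myoc, with adjusted p up to 0.0228 (Cilp, limma after quantile normalization). The number of all genes passing was 2578 to 7370 with 1 library left out in Tw2pos over Tw2neg (5470 with all). In Tw2pos over Pax7pos (2905) it was 1501 at a mean of at least 50 CPM, 1860 after quantile normalization and 1658 to 3817 with 1 library left out. In the difference between the lines (1764) it was 979, 962 and 952 to 3173. In Tw2neg over Pax7neg (3) it was 183 by edgeR, 253 by DESeq2, 304 with TMM factors, 18 at a mean of at least 50 CPM, 1 with a pseudocount of 10, after quantile normalization or without the variance trend, and 47 to 1049 with 1 library left out. Of the 7 genes, 2 passed in Tw2neg over Pax7neg as lower by edgeR, 1 by DESeq2 and 3 with TMM factors. Scaling moved the balance of calls: in Tw2pos over Tw2neg library totals gave 1607 higher and 5257 lower (median of all genes -0.49) and quantile normalization 3213 and 2339 (0.10), against 2645 and 2825. In Tw2pos over Pax7pos there were 1665 higher and 1240 lower, 1317 and 1618 by DESeq2, 1503 and 1513 by edgeR, and 862 and 998 after quantile normalization.

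Equal replicate numbers were not taken as pairs: the labels do not say that they share an animal, and the 2 pairs deviated together with r = 0.263 over 14155 genes. With a replicate block 6627 genes passed in Tw2pos over Tw2neg, with 7 of the 7 higher. Depth limits Scx most, with 27 reads in Tw2neg replicate 2 and 43 in Pax7pos.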
